A study of Mus musculus with 15 samples.

Results

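Skin that had been irradiated with ultraviolet B but carried no lesion was compared with skin that had not been exposed, both from placebo-treated SKH1 mice. SKH1 is a hairless, immune-competent laboratory strain used for ultraviolet carcinogenesis. The comparison was taken whole, as every gene symbol of the authors' deposited table for this contrast that a spreadsheet had not turned into a date, 24027 symbols. It rests on 6 of the 15 libraries of the series. The 3 non-lesional libraries (Control 1 to 3, non-lesional) are irradiated skin of female mice that were 6 to 8 weeks old when exposure began and received 500 J/m2 of ultraviolet B, 5 days a week over 10 weeks. The 3 non-UV-exposed libraries (Control 1 to 3, non-UV exposed) are skin of placebo-treated females that the labels call unexposed and the table headers call back. For these libraries the same age range and ultraviolet B schedule are listed as for the non-lesional ones. Placebo cream, 0.25 g on 5 days a week, was given to the mice of both groups, and whether it was put on the unexposed site is not stated. Whether back names a body site is not stated. Body site may differ along with exposure, so these cannot be told apart in any difference given here. The same numbers at each site may mean the same mice, which the labels do not state, so the tests reflect differences among these 3 and 3 libraries, some of which may be technical. Lesional and perilesional skin of placebo mice, and lesional skin of mice given a cream with GZ21T, have 3 libraries each and are used only beside this contrast.

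Ultraviolet B is absorbed mostly in the epidermis, where it forms pyrimidine dimers in DNA, and repeated doses make keratinocytes proliferate and thicken the cornified layer. Keratinocytes under stress switch on keratins 6, 16 and 17, and the cornified envelope is built from proteins encoded together in the epidermal differentiation complex. Interferons act through receptors, kinases and transcription factors to induce antiviral genes, chemokines and antigen presentation, and resident macrophages clear lipid and debris in the dermis.

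The authors' deposited table gives, for each gene, a log2 fold change of non-lesional over non-UV-exposed skin with the result of a DESeq2 Wald test, so a positive value means higher in non-lesional skin. Standard errors (SE) were computed here from the fold change and the Wald statistic, and a gene was called changed at an adjusted p under 0.05. Values per library were not analysed here, so no library can be shown on its own and the depth is unknown. Of the 24027 symbols, 5199 have no fold change in the authors' deposited table, 28 have a fold change without a p and 4676 have a p but no adjusted p. That left 14124 genes tested. A fold change of exactly 0 is listed for 1423 symbols, nearly all of them untested. The authors' deposited table calls 235 of the 14124 tested genes changed (1.66%), of which 160 were higher (1.13%) and 75 lower (0.531%) in non-lesional skin. At least a doubling was seen for 135 of the higher genes, and at least a halving for 59 of the lower ones. The median log2 fold change was 1.62 among the higher genes and -1.80 among the lower genes, against -0.02 over all tested genes. An unadjusted p under 0.05 was listed for 1415 of the 14124 tested genes in the authors' deposited table. Such counts for single lists are to be read beside this share. Of the 14 genes listed as markers of epidermis and dermis, 13 passed the authors' filter on low counts and 0 were called, with 1 at an unadjusted p under 0.05 in the authors' deposited table. The marker Flg was not analysed here.

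**Figure D1:**
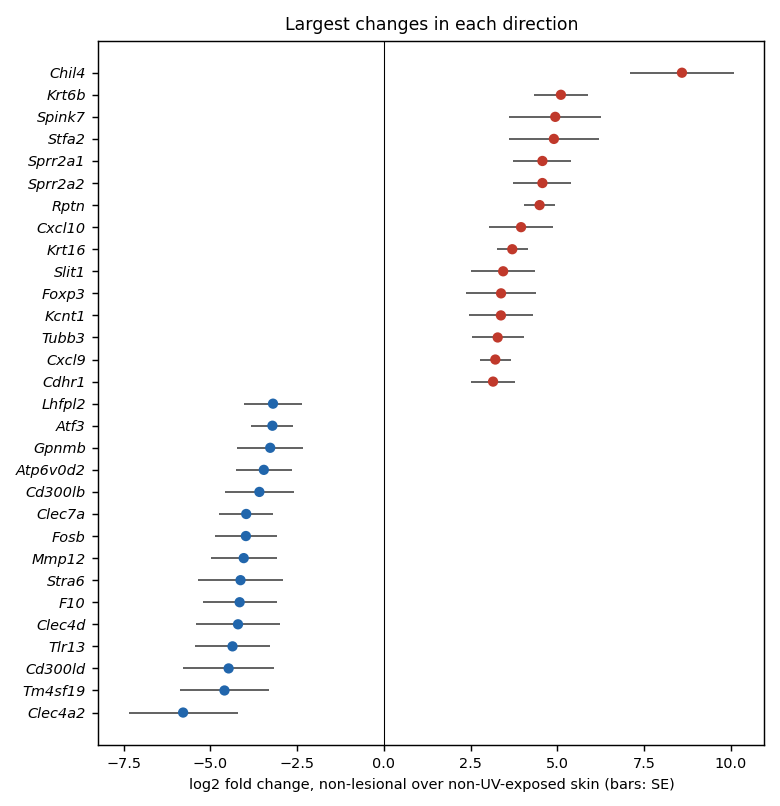
Log2 fold change of non-lesional over non-UV-exposed skin for the 15 largest and 15 smallest values among called genes of at most 15 in size, with SE bars (3 libraries per group). Chil4 stands apart at 8.59, while keratin, cornified envelope and interferon-induced genes fill much of the upper block and macrophage-expressed genes much of the lower one.

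The keratins that mark stressed epidermis were higher in non-lesional skin. Of 5 stress keratin genes tested, 4 were higher and 0 lower, with a median log2 fold change of 2.69, against 1.13% of all genes called higher. Krt16, a keratin of wounded and hyperproliferative epidermis, stood at 3.70 ± 0.45 on the log2 scale (SE; adjusted p = 1.3e-12, authors' deposited table), which is 13.0-fold. Its usual partner Krt6b has 5.10 ± 0.78 (adjusted p = 8.6e-08, authors' deposited table) and its near copy Krt6a has 2.69 ± 0.51 (adjusted p = 5.8e-05). The 2 Krt6 genes are close paralogs, so reads could be split between them. Krt17 rose by less, by 1.17 ± 0.28 on the log2 scale (adjusted p = 0.0037, authors' deposited table). The member that did not pass, Krt75, a keratin of the hair follicle, has -0.99 ± 0.97 in the authors' deposited table. The keratins of normal epidermis did not pass the test: Krt5 of the basal layer has -0.16 ± 0.36 and Krt14 has 0.34 ± 0.35, while Krt1 and Krt10 of the suprabasal layers have 0.93 ± 0.38 and 0.61 ± 0.57 in the authors' deposited table. Krt15, a keratin of basal and follicle stem cells, was lower, at -1.997 ± 0.46 (adjusted p = 0.0030, authors' deposited table). It was the only called gene of the 16 basal and stem cell genes, against 0.531% of all genes called lower. The median of that list was -0.52.

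The called genes of the cornified layer came from several families. Small proline-rich and other precursor proteins are cross-linked into the envelope. Of 24 tested, 4 were higher and 0 lower, against 1.13% of all genes called higher. A positive fold change was seen for 14, and the median was 0.75. Rptn, which encodes repetin, is the gene with the smallest adjusted p of the table, at 4.49 ± 0.44 (adjusted p = 4.3e-20, authors' deposited table). Sprr1b, an envelope precursor induced by stress, has 2.95 ± 0.59 (adjusted p = 0.00020, authors' deposited table). For Sprr2a1 and Sprr2a2 the authors' deposited table lists the same value, 4.57 ± 0.83, and their annotated spans overlap, so they count as an uncertain pair. The envelope precursors loricrin and involucrin did not pass, with -0.11 ± 0.49 for Lor and -0.23 ± 0.55 for Ivl in the authors' deposited table. The precursor list thus held its called genes in a few members, while 10 of the 24 had a negative fold change.

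Of the late cornified envelope genes, which act in the last steps of cornification, the fold changes were mostly positive. Of 20 tested, 19 had a positive fold change and 4 were called higher and 0 lower, with a median of 1.15. The called members are neighbours: Lce1e at 1.42 ± 0.35, Lce1f at 1.34 ± 0.33, Lce1g at 1.49 ± 0.33 and Lce1h at 1.55 ± 0.34 in the authors' deposited table, with adjusted p between 0.0011 for Lce1h and 0.0064 for Lce1e. The Lce1 genes resemble one another in sequence, so counts among them may be shared. Across the epidermal differentiation complex, taken as chromosome 3, 90511034 to 93564643 of GRCm38 from S100a1 to S100a10, 58 genes were tested. Of these 9 were higher and 0 lower, which is 15.5% of them against 1.66% of all genes, 40 had a positive fold change and the median was 0.95. The S100 alarmins at the ends of the complex were not among the called genes: 0 of 9 passed in the authors' deposited table, with 2 at an unadjusted p under 0.05 and a median of -0.17.

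**Figure D2:**
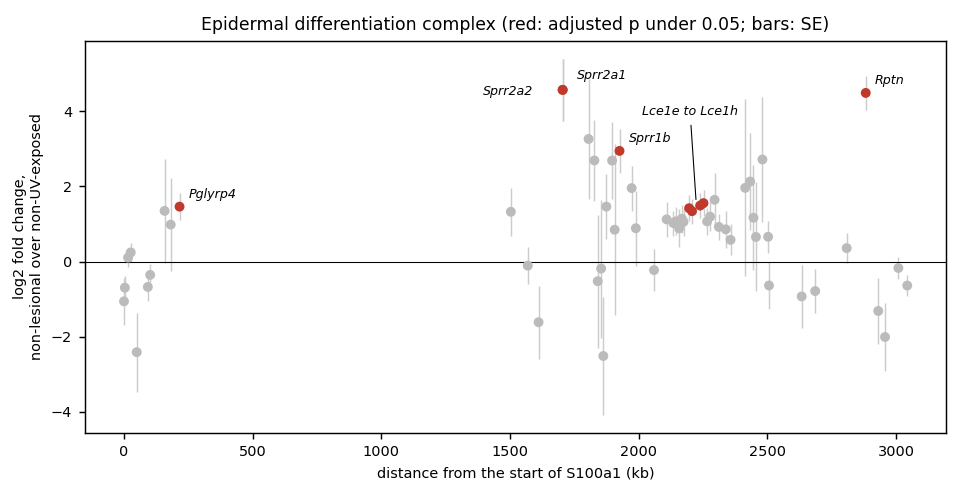
Log2 fold change of non-lesional over non-UV-exposed skin (SE bars) for the 58 tested genes of the epidermal differentiation complex, by distance in kb from the start of S100a1. The 9 called genes (red) lie in the Sprr and Lce blocks and at Rptn and Pglyrp4, and the Lce1 genes form a run of similar positive values.

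Enzymes and inhibitors that act on the cornified layer formed the epidermal list with the most called members. Of 27 tested, 7 were higher and 0 lower, against 1.13% of all genes called higher, 25 were positive and the median was 1.01. Klk6, a kallikrein-related serine protease, has 2.59 ± 0.38 (adjusted p = 1.6e-08, authors' deposited table), and Klk13 has 2.52 ± 0.68 (adjusted p = 0.021). Klk7, which cleaves corneodesmosomes during shedding, has 1.17 ± 0.31 (adjusted p = 0.016, authors' deposited table). Its substrate corneodesmosin, Cdsn, was higher too, by 1.32 ± 0.30 (adjusted p = 0.0028, authors' deposited table). The desmosomal cadherin Dsg1b has 1.01 ± 0.29 (adjusted p = 0.038, authors' deposited table), a call lost without the filter on low counts (adjusted p = 0.050). Dsc1, another desmosomal cadherin, has 1.61 ± 0.28 (adjusted p = 4.5e-06, authors' deposited table). The transglutaminase Tgm5, which cross-links envelope proteins, has 1.17 ± 0.31 (adjusted p = 0.015, authors' deposited table). Stfa3 and Stfa2, inhibitors of cysteine proteases from a family of near-identical genes, have 1.78 ± 0.26 and 4.90 ± 1.30 there (adjusted p = 9.1e-09 and 0.016, authors' deposited table). Stfa3 also stands in the neutrophil list, in which 2 of 8 genes were higher and 0 lower. The other called gene is Cxcr2, a receptor for neutrophil chemokines, at 1.84 ± 0.50 (adjusted p = 0.023, authors' deposited table). In this list 5 genes had a positive and 3 a negative fold change, with a median of 0.50 and a median SE of 1.09. Dividing all Wald statistics by their robust spread (1.09, from the median absolute deviation) ends the calls on Tgm5, Klk7 and Stfa2 (adjusted p = 0.051, 0.054 and 0.054), on Klk13 (adjusted p = 0.065) and on Cxcr2 (adjusted p = 0.072). Whether neutrophil RNA has a part in the stefin values was not tested.

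Some secreted defence genes and keratinocyte cytokines were higher as well. Of 10 antimicrobial genes, 9 were positive, 2 were higher and 0 lower, against 1.13% of all genes called higher, and the median was 1.16. The called ones are Wfdc12, a whey acidic protein-type protease inhibitor, at 2.34 ± 0.44 (adjusted p = 4.6e-05, authors' deposited table), and Pglyrp4, which binds bacterial peptidoglycan, at 1.46 ± 0.36 (adjusted p = 0.0056, authors' deposited table). In the list of the IL-1, IL-17 and IL-36 axis 3 of 20 were higher and 0 lower. Il1f8 and Il1f9 encode the epidermal cytokines IL-36β and IL-36γ, and have 1.93 ± 0.44 and 1.21 ± 0.33 (adjusted p = 0.0023 and 0.025, authors' deposited table). The call on Il1f9 is lost with the robust spread (adjusted p = 0.077). Il1b, the product of which is a main cytokine of inflammasomes, has -1.36 ± 0.79 and did not pass in the authors' deposited table. Ereg, the EGF receptor ligand epiregulin, was higher by 2.10 ± 0.53 (adjusted p = 0.010), while Btc, the ligand betacellulin, was lower by -1.64 ± 0.48 (adjusted p = 0.042, authors' deposited table), a call lost without the filter on low counts (adjusted p = 0.055). Chil4, a chitinase-like protein induced in type 2 inflammation, has the largest fold change among called genes of at most 15 in size, 8.59 ± 1.50 (adjusted p = 8.3e-06, authors' deposited table). It was the only called gene among 14 of type 2 inflammation.

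**Figure D3:**
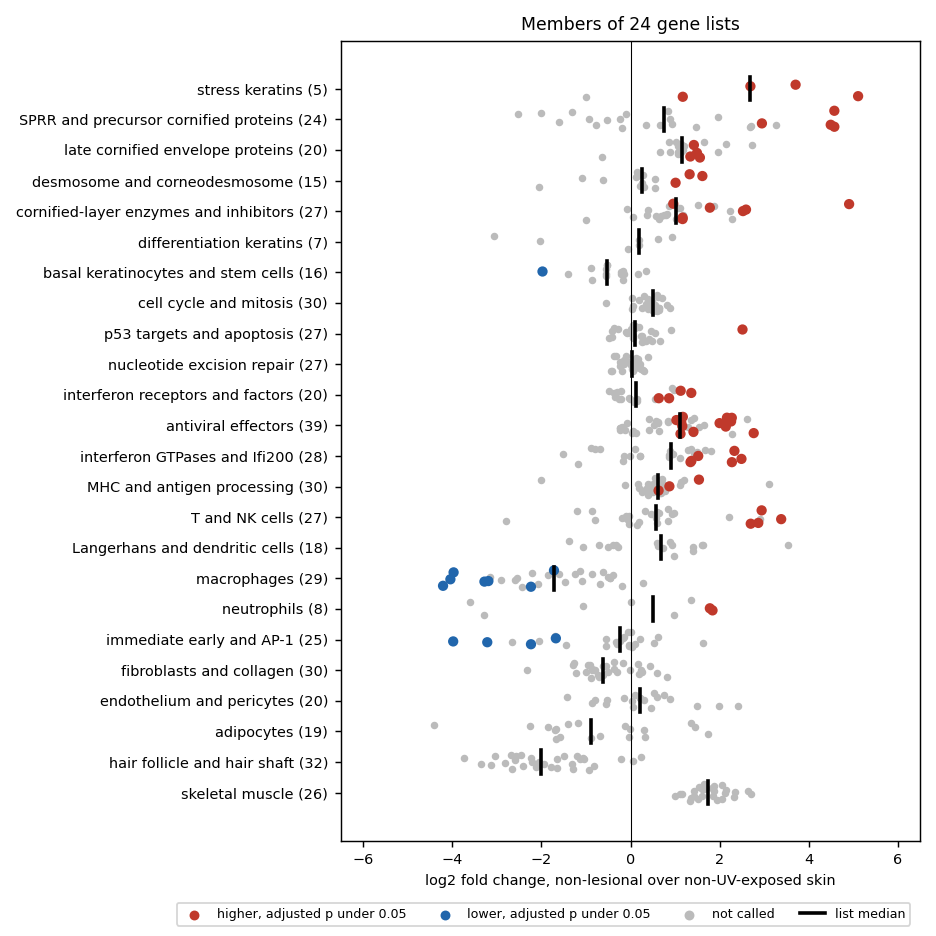
Log2 fold change of non-lesional over non-UV-exposed skin for the tested members of selected gene lists, 1 point a gene, with the number tested in brackets and the list median as a black bar. Red points (called higher) gather in the keratin, cornified layer and interferon lists, blue points (called lower) in the macrophage and immediate early lists, and hair and muscle genes are shifted with 0 called.

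Among 20 receptors, kinases and transcription factors of interferon signalling 4 were higher and 0 lower, against 1.13% of all genes called higher. A negative fold change was seen for 9, and the median was 0.11. Irf9, the DNA-binding part of the complex that reads type I interferon, has 0.86 ± 0.19 (adjusted p = 0.00093, authors' deposited table). Stat2, its partner, has 1.12 ± 0.33 (adjusted p = 0.042, authors' deposited table), a call lost without the filter on low counts (adjusted p = 0.055). Stat3, which serves IL-6 family cytokines, has 0.63 ± 0.13 (adjusted p = 0.00038, authors' deposited table). Ifng, which encodes interferon γ, has 2.92 ± 1.74 in the authors' deposited table, with no adjusted p.

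Of 39 antiviral genes 12 were higher and 0 lower, 33 were positive and the median was 1.12, against 1.13% of all genes called higher. Among them were the oligoadenylate synthetases that detect double-stranded RNA: Oas2 at 2.76 ± 0.71, Oas3 at 2.27 ± 0.50, Oas1g at 2.16 ± 0.47, Oas1b at 1.41 ± 0.34 and Oasl2 at 2.25 ± 0.44 in the authors' deposited table, with adjusted p from 0.00011 for Oasl2 to 0.012 for Oas2. Mx2, a dynamin-like GTPase that blocks virus replication, has 2.14 ± 0.56 (adjusted p = 0.016, authors' deposited table), a call lost with the robust spread (adjusted p = 0.054). Several widely used interferon-induced genes did not pass, among them Isg15 at 1.30 ± 0.69, Ifit1 at 2.60 ± 0.81, Rsad2 at 0.84 ± 0.89 and Ifit3 at 0.13 ± 0.81 in the authors' deposited table, named here after their values were seen. Of 28 genes for interferon-induced GTPases and the Ifi200 family 6 were higher and 0 lower, with a median of 0.92. Igtp and Irgm2, immunity-related GTPases that act against intracellular pathogens, have 2.49 ± 0.40 and 2.33 ± 0.40 (adjusted p = 6.4e-07 and 6.9e-06, authors' deposited table). Their annotated spans on chromosome 11 overlap, so reads could be shared between them.

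Of 18 chemokine genes 2 were higher and 0 lower, against 1.13% of all genes called higher. Positive fold changes numbered 10 and negative ones 8, and the median was 0.25. The called ones, Cxcl9 and Cxcl10, which draw activated T cells through the receptor CXCR3, have 3.21 ± 0.46 and 3.95 ± 0.92 (adjusted p = 3.5e-09 and 0.0031, authors' deposited table). Of 30 genes for MHC and antigen processing 28 were positive and 3 were higher and 0 lower, with a median of 0.61. The called ones are Tapbp, which loads peptides onto MHC class I, at 0.63 ± 0.16 (adjusted p = 0.011), H2-T22 at 0.87 ± 0.23 (adjusted p = 0.018) and Ciita, the master regulator of MHC class II, at 1.53 ± 0.45 (adjusted p = 0.042, authors' deposited table). The call on Ciita is lost without the filter on low counts (adjusted p = 0.056), and that on H2-T22 with the robust spread (adjusted p = 0.058). The cathepsin gene Ctss went the other way, with -2.02 ± 0.67, and did not pass in the authors' deposited table.

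Markers of T and NK cells were mixed. Of 27 tested, 18 were positive and 4 were higher and 0 lower, against 1.13% of all genes called higher, with a median of 0.57. Cd8a, the co-receptor of cytotoxic T cells, has 2.94 ± 0.69 (adjusted p = 0.0037), and Icos, a co-stimulatory receptor of activated T cells, has 2.86 ± 0.57 (adjusted p = 0.00021, authors' deposited table). Cd6, a surface receptor of T cells, has 2.69 ± 0.63 (adjusted p = 0.0034, authors' deposited table). Foxp3, the factor of regulatory T cells, has 3.38 ± 1.00 (adjusted p = 0.047, authors' deposited table), a call lost without the filter on low counts (adjusted p = 0.062). The chain of the T cell receptor complex Cd3e has -1.20 ± 0.44 (adjusted p = 0.17) and Cd3d has -0.04 ± 0.92 in the authors' deposited table. The CD3 chains were thus not called beside the 4 genes that were. In these bulk libraries more cells of a type and more RNA per cell cannot be told apart, here and in every list of cell markers.

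The short promoter stretches of the called genes were searched for letters that interferon and stress factors are known to bind. RefSeq promoters on GRCm38.p6, from 250 bases before to 50 after the gene start, matched 106 of the 160 higher genes, 59 of the 75 lower genes and 10503 of the 14124 tested. The core of the interferon-stimulated response element, searched as GAAANNGAA on both strands, was present in 22.6% of the promoters of higher genes (95% exact binomial interval 15.1 to 31.8). It was present in 6.78% of those of lower genes (1.88 to 16.5) and in 8.85% of all tested (8.32 to 9.41). Among the 16 matched higher genes of the interferon lists 10 held it (62.5%, interval 35.4 to 84.8), and among the other 90 matched higher genes 14 did (15.6%, 8.77 to 24.7). Genes of the interferon lists that were not called were not counted apart. The 62.5% therefore cannot be tied to the change rather than to membership in these lists. A match is a description of the letters and not a binding site. The intervals cover counting error only. The windows below show the match (capitals) in called genes of the interferon lists. Cxcl10, of the chemokine list, is shown too and counts among the other 90. Each window has 10 bases on each side of the match where the stretch allows, written 5′ to 3′ on the gene's strand. The call on Samd9l, an antiviral effector, is lost with the robust spread (adjusted p = 0.082). Each name is followed by the place of its 300-base RefSeq stretch on GRCm38.p6. In Gbp7 and H2-T22 the match runs on the other strand.
Igtp (chr11:58199306-58199605, plus strand), 34 bases before the start: tctaggaactGAAACTGAAagctgttcgg
Irgm2 (chr11:58214727-58215026, plus strand), 64 bases before the start: tccaggaactGAAACTGAAagctgttcgg
Oas1g (chr5:120887564-120887863, minus strand), 12 bases before the start: tcgggaaatgGAAACTGAAaatctacttc
Oas3 (chr5:120777610-120777909, minus strand), 69 bases before the start: aggagaaaacGAAAGTGAAgggaggtgac
Samd9l (chr6:3399522-3399821, minus strand), 38 bases after the start: atcgaaactgGAAACTGAAgca
Cxcl10 (chr5:92348840-92349139, minus strand), 213 bases before the start: tcacgctttgGAAAGTGAAacttacctca
Gbp7 (chr3:142530086-142530385, plus strand), 52 bases before the start: tgtgtgcagtTTCAGTTTCagttctccat
H2-T22 (chr17:36042693-36042992, minus strand), 190 bases before the start: ttggcttagtTTCACTTTCgaatccccaa
The match in Igtp and Irgm2 sits in nearly the same letters. In Cxcl10 the match stands far from the start, as the whole stretch of chr5:92348890-92349139 (minus strand, GRCm38.p6), written 5′ to 3′ with the match in capitals, shows.
Cxcl10: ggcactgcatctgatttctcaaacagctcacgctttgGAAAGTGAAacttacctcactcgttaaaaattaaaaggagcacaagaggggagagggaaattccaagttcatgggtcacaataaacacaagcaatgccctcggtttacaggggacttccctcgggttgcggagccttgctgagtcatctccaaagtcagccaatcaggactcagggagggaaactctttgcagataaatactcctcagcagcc

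The letters TGANTCA, which AP-1 factors bind, were found in 19.8% of the promoters of higher genes (12.7 to 28.7), 13.6% of those of lower genes (6.04 to 25.0) and 6.89% of all tested (6.42 to 7.39). They were present in 4 of the 17 matched higher genes of the epidermal lists (23.5%, 6.81 to 49.9) and in 4 of the 16 of the interferon lists (25%, 7.27 to 52.4). Of the 7 lower macrophage genes 4 held them (57.1%, 18.4 to 90.1), or 3 with only the first listed promoter of each gene. Genes of these lists that were not called were not counted apart here either. The kappaB core searched as GGNNNTTCC was found in 25.5% of higher, 18.6% of lower and 25.1% of all promoters, and the STAT element TTCNNNGAA in 9.43%, 6.78% and 8.48%. The intervals of these last 2 motifs in the higher and lower genes include the share of all promoters. The AP-1 match is shown in capitals for genes of the cornified layer, for the cytokine Lif and for macrophage genes, in the same layout.
Rptn (chr3:93393449-93393748, plus strand), 96 bases before the start: tgagcccagaaTGATTCAggccctaccaa
Sprr1b (chr3:92438730-92439029, minus strand), 111 bases before the start: agcacctaggaTGAATCAtgtctgacagg
Lif (chr11:4257318-4257617, plus strand), 228 bases before the start: ccagtcagctgTGACTCAggccatagtgg
Mmp12 (chr9:7347124-7347423, plus strand), 44 bases before the start: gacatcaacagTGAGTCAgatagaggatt
Trem2 (chr17:48346151-48346450, plus strand), 9 bases before the start: ttctccctcctTGAATCAcagcgcctacc
Gpnmb (chr6:49036268-49036567, plus strand), 8 bases after the start: ccaggggcaagTGACTCAtgagcacgagt

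**Figure D4:**
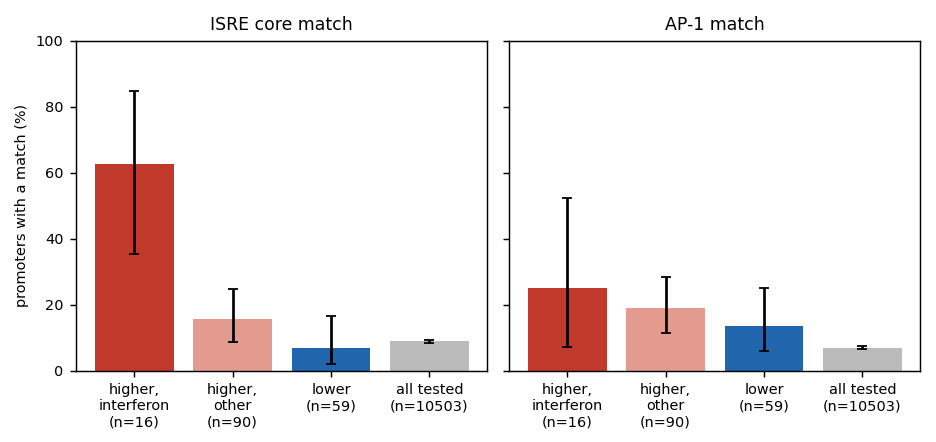
Share of matched RefSeq promoters (300 bases) that hold the interferon-response core or the AP-1 letters, in called genes and in all tested genes, with 95% exact binomial intervals. The higher genes of the interferon lists stand at 62.5% for the interferon-response core, against 15.6% of the other higher genes, 6.78% of the lower genes and 8.85% of all. Interferon-list genes that were not called were not counted apart, so the 62.5% cannot be tied to the change.

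Macrophage-expressed genes were lower in part. Of 29 tested, 28 had a negative fold change and 7 were lower and 0 higher, with a median of -1.72, against 0.531% of all genes called lower. Clec7a, the β-glucan receptor dectin-1, has -3.97 ± 0.78 (adjusted p = 0.00016, authors' deposited table), which is 15.7-fold lower. Mmp12, the macrophage elastase, has -4.04 ± 0.96 (adjusted p = 0.0040, authors' deposited table). Trem2, a lipid-sensing receptor, has -3.19 ± 0.78 (adjusted p = 0.0056), and Gpnmb, a glycoprotein of lipid-laden macrophages, has -3.28 ± 0.96 (adjusted p = 0.042, authors' deposited table). The lysosomal protein gene Cd68 has -2.23 ± 0.57 (adjusted p = 0.010) and the lipid-droplet gene Plin2, which other cells also express, has -1.72 ± 0.45 (adjusted p = 0.016, authors' deposited table). Clec4d, a C-type lectin, has -4.21 ± 1.22 (adjusted p = 0.040, authors' deposited table). The calls on Gpnmb and Clec4d are lost without the filter on low counts (adjusted p = 0.055 and 0.053), and that on Plin2 with the robust spread (adjusted p = 0.054). Among markers that did not pass were Csf1r at 0.29 ± 0.53, Mrc1 at -0.62 ± 0.88, C1qa at -0.50 ± 0.70 and Emr1, which encodes F4/80, at -1.48 ± 0.76 in the authors' deposited table, named after their values were seen. Of 18 Langerhans and dendritic cell genes 0 were called. An unadjusted p under 0.05 was listed for 5 of the 18 in the authors' deposited table, against 1415 of all 14124 genes tested. The list median was 0.67, and Cd207, which encodes langerin, has 1.60 ± 0.60 there (adjusted p = 0.20).

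Immediate early genes were lower where they passed. Genes of this list are switched on within minutes by stress and growth signals. Of 25 tested, 4 were lower and 0 higher, against 0.531% of all genes called lower, with a median of -0.24. Atf3, a stress-induced repressor, has -3.21 ± 0.61 (adjusted p = 5.9e-05) and Fosb, a component of AP-1, has -3.98 ± 0.90 (adjusted p = 0.0022, authors' deposited table). Nr4a2, an orphan nuclear receptor, has -2.23 ± 0.57 (adjusted p = 0.010) and Dusp1, a phosphatase of MAP kinases, has -1.68 ± 0.47 (adjusted p = 0.030, authors' deposited table). The call on Dusp1 is lost with the robust spread (adjusted p = 0.088).

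Most genes of the DNA damage response lay near 0. Of 27 genes of nucleotide excision repair, which removes ultraviolet photoproducts, 0 were called and 0 had an unadjusted p under 0.05 in the authors' deposited table, with a median of 0.04. Cdkn1a, Mdm2 and Trp53 have 0.11 ± 0.31, -0.08 ± 0.25 and 0.07 ± 0.31 in the authors' deposited table. Among 27 genes of the p53 network and apoptosis 1 was higher and 0 lower, against 1.13% of all genes called higher. The called gene Cdkn2a, which encodes the cell cycle inhibitors p16 and p19ARF, has 2.50 ± 0.62 (adjusted p = 0.0080, authors' deposited table), a 5.67-fold difference. Of 30 genes of cell cycle and mitosis 29 were positive, but 0 were called. An unadjusted p under 0.05 was listed for 3 of the 30 in the authors' deposited table, against 1415 of all 14124 genes tested. The list median was 0.49, and the proliferation marker Mki67 has 0.43 ± 0.29 (adjusted p = 0.71, authors' deposited table). The NRF2 target list held 0 called genes of 24, with 2 at an unadjusted p under 0.05, and a median of 0.07 in the authors' deposited table.

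Genes of the dermis and its appendages did not pass, and their fold changes are imprecise. Of 32 hair follicle genes 30 were negative, with a median of -2.001 and a median SE of 1.32, against a median SE of 0.32 over all tested genes. Of the 32 hair follicle genes 0 were called. An unadjusted p under 0.05 was listed for 7 of them in the authors' deposited table, against 1415 of all 14124 genes tested. All 26 skeletal muscle genes tested were positive, with a median of 1.74 and a median SE of 1.55, and 0 were called or had an unadjusted p under 0.05 in the authors' deposited table. Another 9 muscle genes are among the 28 with a fold change but no p there, and 1 of the 9 was positive. DESeq2 withholds a p where a single library has an extreme count. Of 30 fibroblast and collagen genes 7 were positive, 0 were called and 1 had an unadjusted p under 0.05 in the authors' deposited table, with a median of -0.62. Of 19 adipocyte genes 0 were called and 3 had an unadjusted p under 0.05 in the authors' deposited table, with a median of -0.88. The part of these tissues in the called differences was not tested.

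Genes that keep a memory of body position were examined because the unexposed skin is named back. Of 16 HoxA and HoxB genes 14 were positive, with a median of 1.11. The test called 1 of the 16 higher and 0 lower, against 1.13% of all genes called higher. An unadjusted p under 0.05 was listed for 8 of the 16 in the authors' deposited table, against 1415 of all 14124 genes tested. The called gene, Hoxb7, has 2.73 ± 0.55 (adjusted p = 0.00021, authors' deposited table). Gm53, which lies within 500 kb of Hoxb7, was called higher too, at 3.95 (adjusted p = 0.031, authors' deposited table). The call on Gm53 is lost with the robust spread (adjusted p = 0.091). Of 10 HoxC and HoxD genes 0 were called and 2 had an unadjusted p under 0.05 in the authors' deposited table, with a median of -0.59, and Hoxc8 has -1.11 ± 0.43 there (adjusted p = 0.23). Of 16 limb, trunk and head position factors 0 were called and 3 had an unadjusted p under 0.05 in the authors' deposited table. Exposure and body site cannot be told apart in these values.

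Some of the higher genes lay near one another, and few of the lower ones did. How often unchanged genes lie so close was not tested. Of the 157 higher genes placed on GRCm38 with GENCODE M21, 55 fell into 20 groups in which neighbours lay within 500 kb, and 5 groups held 3 or more. Each span below runs from the first to the last called gene of its group. A high share called within a span is thus fixed by construction and is no result. Over all tested genes 1.13% were called higher. On chromosome 16, 35832874 to 36455392, the antiviral genes Parp14, Dtx3l and Parp9 lie beside 4 stefin genes, and 7 of the 13 genes tested there were higher. Dtx3l and Parp9 overlap at their starts, and the call on Dtx3l is lost with the robust spread (adjusted p = 0.054). On chromosome 5, 120730333 to 120887613, 4 of 7 tested were higher, all oligoadenylate synthetases. The kallikreins Klk13, Klk9, Klk7 and Klk6 lie on chromosome 7, 43712567 to 43832030, where 4 of 8 tested were higher. On chromosome 11, 58187739 to 58222782, all 3 tested, Gm12250, Igtp and Irgm2, were higher. Of 73 lower genes placed, 6 fell into 2 groups, of which the larger holds Apobec1, C3ar1, Clec4a2 and Clec4d on chromosome 6, 122577792 to 123275265. With the robust spread the calls on these 4 are lost (adjusted p = 0.065 for Clec4a2 to 0.12 for Apobec1). Within 100 kb the lower genes formed 1 group of 2.

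The same genes were then read at the other irradiated sites. Lesional over non-UV-exposed skin shares the unexposed libraries with the comparison described here, and perilesional over non-lesional skin shares the non-lesional ones, so these values are set side by side and not counted as support. In lesional over non-UV-exposed skin 18.3% of genes tested were called in the authors' deposited table, and in perilesional over non-lesional skin 0.112%. Perilesional over non-UV-exposed skin was taken as the sum of 2 deposited fold changes and has no SE. The 160 higher genes had a median log2 fold change over non-UV-exposed skin of 1.62 in non-lesional, 1.62 in perilesional and 1.62 in lesional skin. The 75 lower genes had medians of -1.80, -1.03 and -1.25 at the same sites.

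The medians of single groups differed between the sites, without a test of the difference. The late cornified envelope list had medians of 1.15 in non-lesional, 1.42 in perilesional and -0.32 in lesional skin, each over non-UV-exposed skin. Of its 20 genes 4 were called higher and 0 lower in non-lesional skin, and 5 higher and 1 lower in lesional skin (18.3% of all genes called there, authors' deposited table). Lce1h has 1.55 ± 0.34 in non-lesional and -0.04 ± 0.34 in lesional skin in the authors' deposited table, and its perilesional sum is 1.84. The stress keratin list had medians of 2.69, 3.10 and 4.15 in the same order. The macrophage list had -1.72 in non-lesional, -0.35 in perilesional and -0.49 in lesional skin, and in lesional over non-UV-exposed skin 1 of its 29 genes was lower and 0 higher (18.3% of all genes called). Clec7a, for example, has -3.97 ± 0.78 in non-lesional and -1.41 ± 0.72 in lesional skin in the authors' deposited table, and its perilesional sum is -1.31. In perilesional over non-lesional skin 0 of the 29 were called in the authors' deposited table. The antiviral list had medians of 1.12, 1.24 and 1.37. The differences between lesional and non-lesional skin were derived with an SE that is an upper bound, and 0 of 14122 genes were then called (0%) by the normal tail with Benjamini-Hochberg adjustment, with 1052 at an unadjusted p under 0.05. With the larger of both deposited SEs in its place 671 were called, 27 of them among the 235, so the upper bound decides this count and the sites are not shown to be alike.

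**Figure D5:**
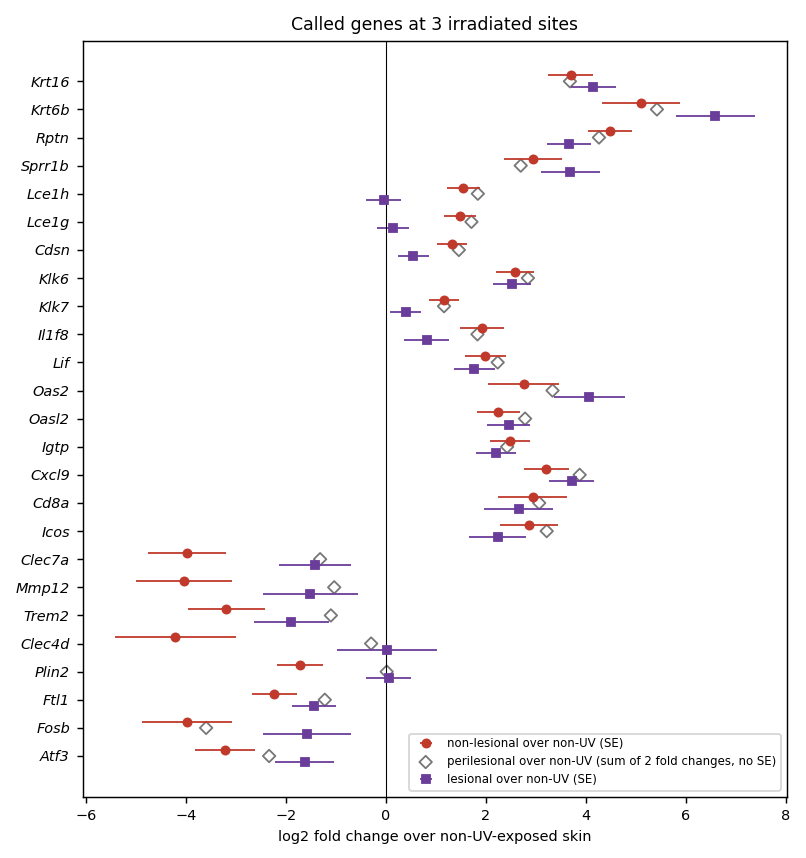
Log2 fold change over non-UV-exposed skin at non-lesional, perilesional and lesional sites for called genes of the main groups, chosen after their values were seen, with SE bars where one exists (3 libraries per group). Lce1h and Lce1g lie near 1.5 at the non-lesional and near 0 at the lesional site, and Clec7a, Mmp12 and Clec4d lie lowest at the non-lesional site.

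The comparison of placebo lesions with lesions of mice given GZ21T shares no library with the contrast described here. Its fold changes run placebo over GZ21T, so a negative value means higher under GZ21T. Of the 160 higher genes 147 were tested in it, and 7 were higher in GZ21T lesions and 3 in placebo lesions, against 3.61% of all genes called in either direction in the authors' deposited table. Among the 7 are Lce1e, Lce1f, Lce1g and Lce1h, with values from -1.34 for Lce1e to -1.58 for Lce1h (adjusted p = 0.017 and 0.0027, authors' deposited table). Serpinb3b, a serine protease inhibitor of keratinocytes, was also higher under GZ21T, at -1.25 (adjusted p = 0.0024, authors' deposited table). Of the 75 lower genes 59 were tested, and 1 was higher in GZ21T lesions and 2 in placebo lesions. Fosb was higher in placebo lesions, at 3.00 (adjusted p = 0.042, authors' deposited table).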

How the data were processed

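Skin RNA was sequenced from 5 groups of 3 libraries each, with total RNA libraries of a stranded kit, as the labels' protocols state. Trim Galore, DESeq2 and the build GRCm38 (mm10) are named in the submitters' processing notes, and no source used here gives the aligner, counter, annotation or model formula. The authors deposited tables of comparisons with a log2 fold change of each gene, per the file headers, a Wald statistic (the authors' score), and a p-value and adjusted p-value of the authors' test. The tables used here hold comparisons, with 0 unused columns of values per library, and so give no depth.

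Dividing the log2 fold change by the statistic gave the SE. The deposited p equals the normal tail of the statistic. Direction was read from the headers and checked on genes at exactly 0 in both groups: of 1423 such genes in this contrast, 537 are positive and 0 negative in perilesional over non-lesional skin. Back, in the headers, was read as the unexposed group, the others having names of their own. A further table is labelled for perilesional and lesional skin but has a header of lesional over back, and was used as such. Sizes over 15 on the log2 scale are not given.

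The genes, gene lists and tests were chosen with earlier results of these data known, and 8 lists were added after values were seen. Lists are described by counts and medians beside those of all 14124 genes tested. The genes named are the 15 highest and 15 lowest fold changes of called genes (sizes over 15, Rik and Gm names left out), up to 5 members of smallest adjusted p of each list with a call, up to 2 of a list without one, and a set of fixed genes. Some genes that meet this rule are not reported here. Others are said to be chosen after their values were seen. Promoters are RefSeq tables on GRCm38.p6 and coordinates GENCODE M21. The alternatives were no filter on low counts, statistics divided by their robust spread, centring, other thresholds of p and size, genes tested in every table, and other motif, promoter and distance rules. The test of lesional against non-lesional skin was tested on simulated data. Python 3.11.15, pandas 2.3.3, numpy 2.4.6, scipy 1.17.1 and matplotlib 3.10.9 were used.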

Additional observations from a re-analysis of the deposited data

How the results depend on the processing

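No paired analysis was possible because the tables used here hold comparisons and no values per library, and for the same reason no replicate could be left out. The number of genes called moved from 235 to 126 when statistics were divided by their robust spread (1.09) and to 110 at an adjusted p under 0.01. The higher genes then numbered 98 and 90 in place of 160, and the lower genes 28 and 20 in place of 75. Without the filter on low counts 190 were called, 137 higher and 53 lower. Centring on the median gave 231, genes tested in every table gave 218 of 10899, an adjusted p under 0.1 gave 321 and a size of at least 1 gave 194. Called genes of the lists numbered 81, and 49 at an adjusted p under 0.01. Of 138 named genes tested, 84 were called. Of these 84, 28 lost their call with the robust spread and 10 without the filter. None of the 138 reversed under these settings. The derived difference of lesional and non-lesional skin had 671 genes in place of 0 with the larger SE. The share of promoters with the interferon-response core was 14.2% of higher, 1.69% of lower and 3.67% of all genes when 1 more A was required, and 7.34% of all genes with the first listed promoter alone. The AP-1 share of all genes was then 5.53%. Lower genes near another numbered 2 within 100 kb in place of 6. The first listed promoter and the 100 kb distance were chosen after seeing the data. Precision is limited by 3 libraries per group and by a median SE above 1 in the hair and muscle lists.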

Other observations

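Gene groups put together after the values were seen are given as values, and nothing is supported with them. Of 21 genes for myeloid lectins, CD300 receptors and paired receptors, through which myeloid cells sense ligands, all 21 were negative. The test called 8 lower and 0 higher, against 0.531% of all genes called lower. Their median log2 fold change of non-lesional over non-UV-exposed skin, over all 21, was -2.97. Clec4a2, an inhibitory lectin of dendritic cells and macrophages, has -5.79 ± 1.57 (adjusted p = 0.021, authors' deposited table), a call lost with the robust spread (adjusted p = 0.065). Of 12 genes of ferritin and iron handling 2 were lower and 0 higher. Ftl1 and Fth1, the light and heavy chains of ferritin, have -2.23 ± 0.45 and -1.40 ± 0.34 (adjusted p = 0.00023 and 0.0052, authors' deposited table). Both have processed pseudogenes that can share reads. Of 20 genes of the NADPH oxidase and the lysosomal proton pump 3 were lower and 0 higher. Cyba, a membrane subunit of the oxidase, has -2.62 ± 0.73 (adjusted p = 0.028, authors' deposited table), a call lost with the robust spread (adjusted p = 0.082). Atp6v0d2, a proton pump subunit of macrophages and osteoclasts, has -3.46 ± 0.80 (adjusted p = 0.0031, authors' deposited table).

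Of 22 cholesterol synthesis genes 20 were positive, with a median of 0.65, and 3 were higher and 0 lower, against 1.13% of all genes. Fdft1, the squalene synthase, has 0.82 ± 0.23 and Ebp, a sterol isomerase, has 0.88 ± 0.25 (adjusted p = 0.028 each, authors' deposited table), and both calls are lost with the robust spread (adjusted p = 0.084 each). Acat2 has 0.99 (adjusted p = 0.031, authors' deposited table), and its call is lost with the robust spread too (adjusted p = 0.090). Of 14 genes of IL-6 family cytokines and STAT3 feedback 3 were higher and 0 lower, among them Lif, the leukaemia inhibitory factor, at 1.99 ± 0.40 (adjusted p = 0.00027) and Bcl3, a nuclear IκB protein, at 1.62 ± 0.36 (adjusted p = 0.0020, authors' deposited table).

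Outside the lists, Ehf, an epithelial ETS factor, has 1.58 ± 0.22 (adjusted p = 6.6e-10, authors' deposited table). Gsdmc, a pore-forming gasdermin with close paralogs, has 2.41 ± 0.35 (adjusted p = 1.6e-08, authors' deposited table). Tnfsf10, the death ligand TRAIL, has 2.26 ± 0.34 (adjusted p = 4.6e-08, authors' deposited table). Dnmt3a, a DNA methyltransferase, was lower, at -0.71 ± 0.15 (adjusted p = 0.00056, authors' deposited table). Tnfaip3, an inhibitor of NF-κB signalling, was lower as well, at -1.35 ± 0.31 (adjusted p = 0.0022, authors' deposited table). Hba-a2, which encodes a chain of haemoglobin, was lower with a fitted size over 15 that is not given. Slit1, an axon guidance ligand, has 3.44 ± 0.93 (adjusted p = 0.021, authors' deposited table), a call lost with the robust spread (adjusted p = 0.065).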
